A study of Homo sapiens with 6 samples.

Results

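De novo purine synthesis builds the purine ring step by step on activated ribose (PRPP) until the nucleotide inosine monophosphate (IMP) is formed, and then splits into a branch to AMP and a branch to GMP. Glutamine, glycine, aspartate, CO2 and formyl groups carried by folate supply the atoms of the ring. The pathway runs in the cytosol and is highly active in dividing tumour cells, which need purines for DNA, RNA and energy carriers. The 10 genes described here encode its enzymes from the first committed step to AMP and GMP, and were chosen by name: PPAT, GART, PFAS, PAICS, ADSL, ATIC, ADSS2, GMPS, IMPDH1 and IMPDH2. Each had 1 row among the 28395 gene IDs of the count files, and all 10 were among the 13767 genes that passed the filter on low counts.

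The counts came from polyadenylated RNA of HCT116 cells, a human line established from a colorectal carcinoma. The cells had spent 24 h either in 0.1% DMSO, the vehicle (3 libraries), or in TR-107 at 50 nM (3 libraries). TR-107 activates ClpP, a serine protease of the mitochondrial matrix, and the comparison asks how the transcriptome differs when this protease is activated. One cell line, 1 dose and 1 time were sampled. The submitters' design text names 3 biological replicates per condition, but the sources do not say how the cultures of a group were separated. The p-values rest on the spread of these 6 libraries, and how independent the cultures were is not known. Gene counts per library were 18344471 to 23708135 in DMSO and 17264039 to 22243758 in TR-107, and log2 levels correlated across genes (not independent replicates) with Pearson's r of 0.9834 to 0.9894 for libraries of 1 group and 0.9537 to 0.9564 for libraries of different groups. Of the epithelial markers, EPCAM, CDH1, KRT8, KRT18 and CDX2 were expressed in both groups, while VIL1 averaged 0.0138 CPM in DMSO and 0.0195 CPM in TR-107. The markers of blood, endothelial and stromal cells summed to 13.2 to 16.5 CPM per DMSO library and 16.6 to 18.2 CPM per TR-107 library, nearly all of it COL1A1, with PTPRC and CD3E at 0 in every library. PECAM1 averaged 0.130 CPM in DMSO and 0.174 CPM in TR-107, and COL1A2 0.0291 CPM in DMSO and 0 CPM in TR-107.

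After TR-107, 6 of the 10 mRNAs fell (PPAT, PFAS, PAICS, ATIC, GMPS and IMPDH1), 2 rose (GART and IMPDH2) and 2 did not pass the test (ADSL and ADSS2). The largest change was the 2.05-fold lower level of IMPDH1, and the other 5 that fell were 1.15 to 1.41-fold lower. The 2 that rose were 1.34-fold (GART) and 1.20-fold (IMPDH2) higher. Calls are those of edgeR's quasi-likelihood test across all tested genes at a Benjamini-Hochberg adjusted p under 0.05, and levels are CPM, the count scaled to the effective (TMM) size of the library. Of all tested genes, 57.8% were called in either direction, 28.6% lower and 29.2% higher, so a call as such was common in this comparison. The median log2 fold change of the 10 was -0.29, beside 0.01 over all genes tested. The 3 TR-107 libraries lay entirely on 1 side of the 3 DMSO libraries for the 8 called members, which was also so for 62.4% of all tested genes. A gene's mRNA per cell was not measured, so fewer transcripts per cell and a smaller share of a changed RNA pool cannot be told apart.

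**Figure D1:**
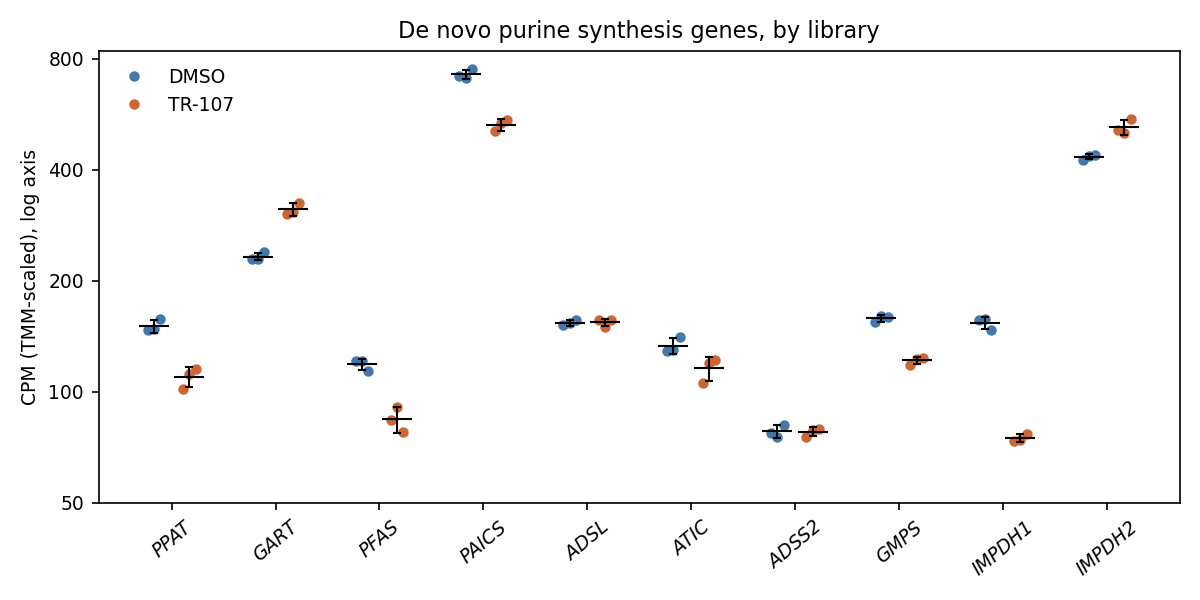
Level of each gene in each library, in TMM-scaled CPM on a log axis, in pathway order except that GMPS stands before IMPDH1 and IMPDH2. Points are libraries (blue DMSO, orange TR-107), black bars are the mean and SD of 3 libraries. The groups overlap only for ADSL and ADSS2, and IMPDH1 shows the widest gap, from 147 to 157 CPM in DMSO to 73.5 to 77.1 CPM in TR-107.

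PPAT encodes the amidotransferase of the first committed step, which replaces the pyrophosphate of PRPP with an amino group. It lies on GRCh38 chromosome 4, 56393362 to 56435615, minus strand (gene ID 5471). PPAT stood at 147, 148 and 158 CPM in DMSO and at 102, 112 and 115 CPM in TR-107. All TR-107 libraries were below all DMSO libraries, and the mean went from 151 ± 6.19 to 109.8 ± 6.89 CPM (n = 3, SD), for a log2 difference of -0.46 (SE 0.05) at an edgeR adjusted p of 3.54e-10.

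GART encodes an enzyme with 3 activities, which adds glycine to the chain, inserts a formyl group from folate and later closes the first ring. It lies on chromosome 21, 33503931 to 33542893, minus strand (gene ID 2618). GART stood at 229, 229.6 and 239 CPM in DMSO and at 304, 307 and 326 CPM in TR-107. All TR-107 libraries were above all DMSO libraries. Its mean went from 233 ± 5.44 to 312 ± 11.8 CPM (n = 3, SD), for a log2 difference of 0.42 (SE 0.04) at an edgeR adjusted p of 1.16e-11, so GART rose while the genes of the steps around it, PPAT, PFAS and PAICS, fell. GART also gives a shorter mRNA that encodes its first activity alone, and counts per gene do not separate these forms.

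PFAS, which inserts nitrogen from glutamine at the step after the first formyl transfer, lies on chromosome 17, 8247608 to 8270486, plus strand (gene ID 5198). PFAS stood at 121, 122 and 114 CPM in DMSO and at 84.1, 91.1 and 77.7 CPM in TR-107. The groups did not overlap, and the log2 difference was -0.50 (SE 0.06) at an edgeR adjusted p of 5.59e-10. Its span overlaps that of CTC1 on the opposite strand, a telomere maintenance gene with 1087 to 1396 counts in DMSO and 1461 to 1816 in TR-107, where PFAS had 2264 to 2781 and 1439 to 1668 counts. The part that reads from this overlap have in the PFAS count was not tested.

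PAICS, a bifunctional enzyme that adds CO2 and then aspartate to the growing ring, is the head-to-head neighbour of PPAT. Its RefSeq span runs from 56410507 to 56464578 on the plus strand of chromosome 4 (gene ID 10606), and its start site at 56435752 lies 136 bases from that of PPAT at 56435615. The sequence between both start sites is shown because both genes beside it fell (log2 differences -0.46 for PPAT and -0.45 for PAICS). It is RefSeq sequence of GRCh38.p14, chr4:56435616-56435751, read on the PAICS strand, with each GC box (GGGCGG) in capitals.
PPAT-PAICS interval: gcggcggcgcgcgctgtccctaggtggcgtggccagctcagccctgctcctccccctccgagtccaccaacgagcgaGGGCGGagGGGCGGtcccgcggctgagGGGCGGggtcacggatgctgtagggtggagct
The interval held 3 matches to the GC box and 0 to the CCAAT box.

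PAICS stood at 719, 708 and 748 CPM in DMSO and at 508, 535 and 545 CPM in TR-107. All TR-107 libraries were below all DMSO libraries. Its mean went from 725 ± 20.4 to 529 ± 18.8 CPM (n = 3, SD), for a log2 difference of -0.45 (SE 0.04) at an edgeR adjusted p of 1.18e-13. Within a library, PAICS had 4.90, 4.79 and 4.73 counts per PPAT count in DMSO and 4.98, 4.79 and 4.72 in TR-107. These values overlapped, and the log2 ratio differed by 0.01 between the groups (means 2.27 and 2.27; exact two-sided permutation p = 1, and 1 adjusted over the 4 single measures compared). The spans of PPAT and PAICS overlap on opposite strands through the remote PAICS start, and the strand setting of the counting is not given in the sources used here.

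ADSL encodes adenylosuccinate lyase, which releases fumarate at a step before IMP and again on the way from IMP to AMP. It lies on chromosome 22, 40346500 to 40387527, plus strand (gene ID 158). ADSL stood at 151, 153 and 157 CPM in DMSO and at 156, 150.1 and 156 CPM in TR-107. The groups overlapped, and the log2 fold change was 0.00, with a 95% interval of -0.09 to 0.10 (edgeR adjusted p = 0.948). Its span overlaps that of SGSM3 on the same strand, which had 905 to 1476 counts per library where ADSL had 2678 to 3792.

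ATIC encodes the bifunctional enzyme that inserts the second formyl group and closes the ring to IMP. It lies on chromosome 2, 215312059 to 215368592, plus strand (gene ID 471). ATIC stood at 129, 129.8 and 141 CPM in DMSO and at 106, 119.8 and 122 CPM in TR-107. The groups did not overlap, but the highest TR-107 library (122 CPM) came close to the lowest DMSO library (129 CPM). ATIC had the smallest change among the members that fell, with a log2 difference of -0.20 (SE 0.05) at an edgeR adjusted p of 0.00136. The span also overlaps FN1, on the opposite strand, which had 98 to 266 counts per library against 1811 to 3400 for ATIC.

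From IMP, the branch to AMP starts with adenylosuccinate synthase, encoded by ADSS2 (chromosome 1, 244408494 to 244452060, minus strand, gene ID 159). ADSS2 stood at 77.3, 75.6 and 81.5 CPM in DMSO and at 75.5, 79.1 and 79.3 CPM in TR-107. The groups overlapped, and the log2 fold change was 0.00, with a 95% interval of -0.12 to 0.12 (edgeR adjusted p = 0.973). Together with ADSL, both enzymes of the AMP branch were thus not called, and neither interval reached beyond 0.12 in size on the log2 scale.

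The branch to GMP starts with IMP dehydrogenase, the rate-limiting enzyme of guanine nucleotide synthesis, of which there are a pair of isozymes. IMPDH1 lies on chromosome 7, 128392277 to 128409982, minus strand (gene ID 3614), and IMPDH2 on chromosome 3, 49024325 to 49029398, minus strand (gene ID 3615). IMPDH1 stood at 157, 157 and 147 CPM in DMSO and at 73.5, 74.1 and 77.1 CPM in TR-107. Each TR-107 library was far below each DMSO library, and the log2 difference of -1.03 (SE 0.05) at an edgeR adjusted p of 7.98e-21 lay at the 3.95th percentile of all tested genes. Only 3.71% of tested genes were called and at least 2-fold lower, and IMPDH1 was the only member among them.

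IMPDH2, the isozyme that is usually induced in proliferating cells, stood at 426, 437 and 439 CPM in DMSO and at 511, 502 and 548 CPM in TR-107. All TR-107 libraries were higher, and the log2 difference was 0.26 (SE 0.04) at an edgeR adjusted p of 2.29e-07. The isozymes thus moved in opposite directions. IMPDH1 held 26.9%, 26.5% and 25.1% of the IMPDH1 and IMPDH2 counts together in the DMSO libraries and 12.6%, 12.9% and 12.3% in the TR-107 libraries. The mean share went from 26.2 ± 0.944% to 12.6 ± 0.258% (SD, n = 3). IMPDH2 had 2.83 ± 0.140 counts per IMPDH1 count with DMSO and 6.94 ± 0.163 with TR-107 (n = 3, SD), and the log2 ratio was higher by 1.30 in TR-107 (means 1.50 and 2.80; exact two-sided permutation p = 0.1, the smallest that 3 libraries against 3 allow, and 0.2 adjusted over the 4 single measures). This ratio is taken within a library and needs no scaling between libraries.

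The summed CPM of both isozymes, not divided by gene length, did not show this shift. IMPDH1 and IMPDH2 together stood at 583, 594 and 586 CPM in DMSO and at 585, 577 and 625 CPM in TR-107, with overlapping groups and means of 587 ± 5.77 and 595 ± 25.9 CPM (SD, n = 3). A longer gene gives more counts per transcript, and the merged exons span 2978 bases for IMPDH1 and 1643 for IMPDH2. Per kilobase of these, mean CPM went from 51.6 to 25.2 for IMPDH1 and from 264 to 317 for IMPDH2. The sum and the IMPDH1 share above thus weight IMPDH1 more and do not give numbers of transcripts. The isozymes are similar in sequence, but of the 3181 different 30-base stretches in the 11 protein-coding IMPDH1 transcripts of the full GENCODE release 29 transcript set, 0 occurred among the 1743 of the 3 IMPDH2 transcripts. IMPDH1 also has 11 pseudogenes by name in RefSeq, PAICS has 7, PPAT has 2 and GMPS has 1, and 0 of these 21 had a row in the count files. How reads that match a gene and its pseudogene were counted is not given in the sources used here, so the counts of these members are less certain.

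GMPS, GMP synthetase, which aminates the product of IMP dehydrogenase to GMP, lies on chromosome 3, 155869430 to 155944020, plus strand (gene ID 8833). GMPS stood at 155, 161 and 159.6 CPM in DMSO and at 118, 123 and 124 CPM in TR-107. All TR-107 libraries were lower, with a log2 difference of -0.38 (SE 0.05) at an edgeR adjusted p of 4.53e-09. The counts of the GMP branch (IMPDH1, IMPDH2 and GMPS) per ADSS2 count were 9.54, 9.98 and 9.14 in DMSO and 9.31, 8.84 and 9.44 in TR-107. These overlapped, and the log2 ratio differed by -0.05 (means 3.26 and 3.20; exact two-sided permutation p = 0.4, and 0.533 adjusted over the 4 single measures). The ratio pools raw counts of genes of unlike length, with merged exons of 8751 bases for GMPS, 2978 for IMPDH1 and 1643 for IMPDH2. Its direction depends on that weighting, and the ratio was not tested per kilobase.

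**Figure D2:**
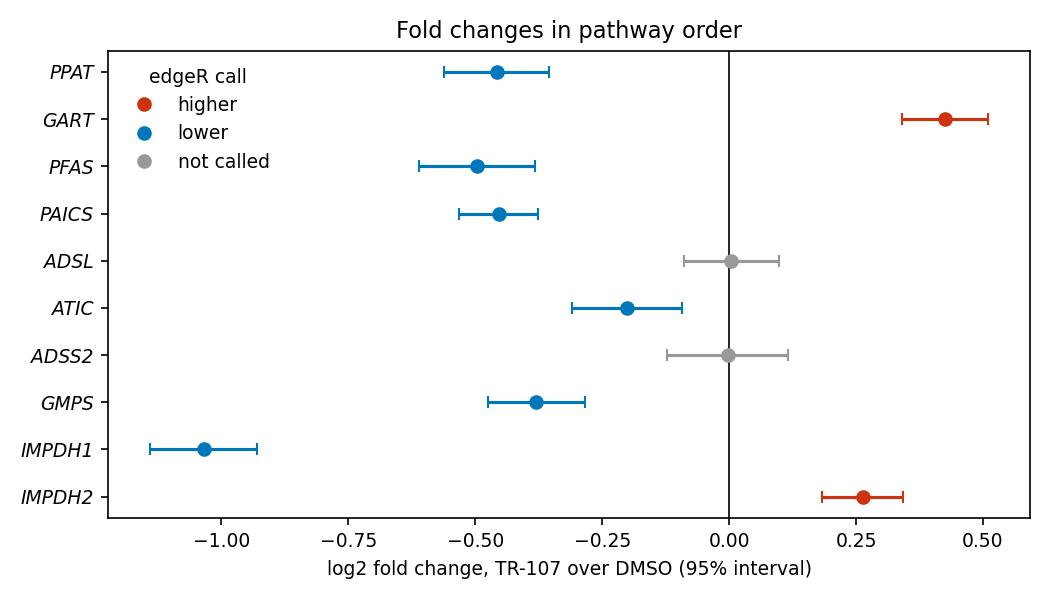
Log2 fold change of each gene, TR-107 over DMSO, with the 95% interval of the edgeR fit. Genes run in pathway order from top to bottom, except that GMPS stands before IMPDH1 and IMPDH2. Colour gives the call. GART and IMPDH2 lie to the right of 0, ADSL and ADSS2 on it, and IMPDH1 stands apart at -1.03.

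**Figure D3:**
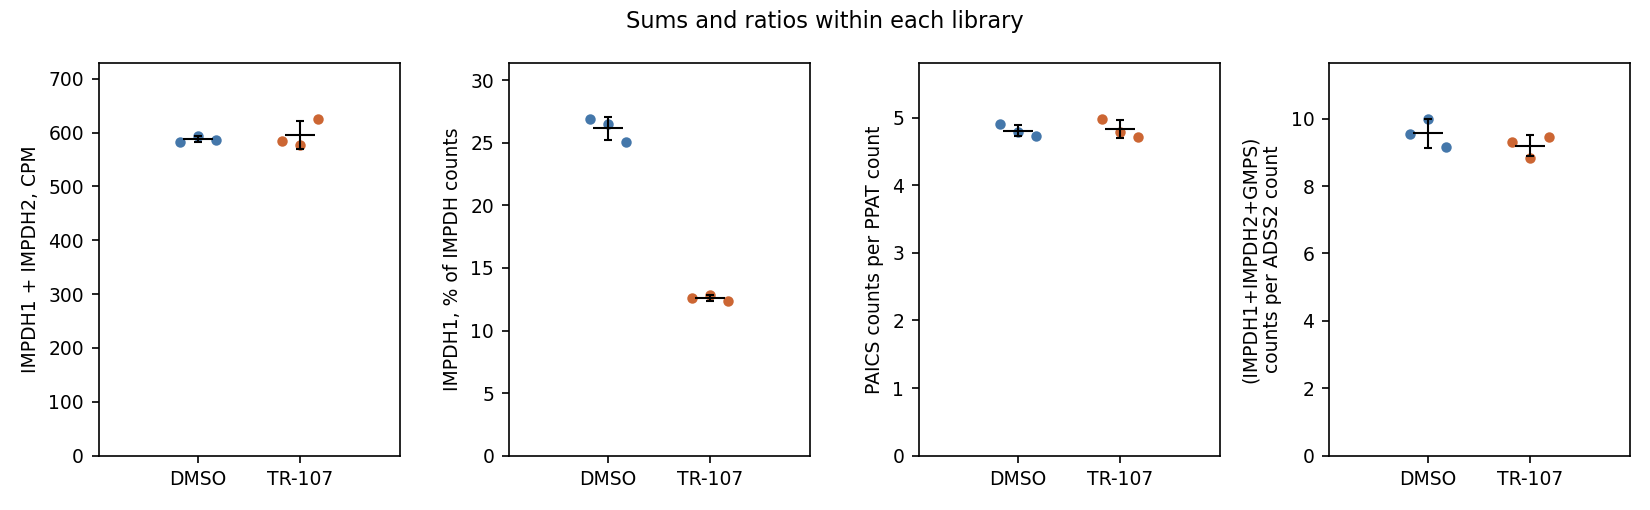
Summed IMPDH level in TMM-scaled CPM, and the share and ratios of counts within each library, with axes from 0 and no division by gene length. Points are libraries, and bars are the mean and SD of 3. The summed IMPDH level and the PAICS to PPAT ratio overlap between groups, while the IMPDH1 share goes from 25.1 to 26.9% in DMSO to 12.3 to 12.9% in TR-107.

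As a share of all gene counts, the 10 members took 0.236%, 0.238% and 0.243% in DMSO and 0.202%, 0.204% and 0.209% in TR-107. The TR-107 libraries were all lower, and the mean went from 0.239 ± 0.00380% to 0.205 ± 0.00369% (SD, n = 3; exact two-sided permutation p = 0.1, the smallest possible, and 0.2 adjusted over the 4 single measures). PAICS and IMPDH2 made up the largest parts of this share by CPM. Mitochondrially encoded genes took 3.56 to 3.92% of counts in DMSO and 4.62 to 4.99% in TR-107, and without them in the denominator the members' share was lower in TR-107 as well (difference -0.0323 percentage points, beside -0.0336 with them).

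Levels of different genes can be compared only per length, and were divided by the merged exon length of each gene's protein-coding transcripts in the smaller basic set of GENCODE release 29 (CPM per kilobase). On this scale IMPDH2 was highest in both groups, with 264 ± 4.16 for DMSO and 317 ± 14.7 for TR-107 (n = 3, SD), followed by PAICS with 108 ± 3.04 and 79.0 ± 2.81 and GART with 53.2 ± 1.24 and 71.3 ± 2.70. PFAS and GMPS were lowest, with 22.1 ± 0.802 and 18.1 ± 0.365 in DMSO and 15.7 ± 1.25 and 13.9 ± 0.323 in TR-107. In DMSO, ATIC overlapped with GART above it and IMPDH1 below it in this order, and in TR-107 PPAT overlapped with ADSS2, while all other neighbours in the order were separate in every library. IMPDH1 went from position 5 in DMSO to position 8 in TR-107. The order depends on the length used: per kilobase of the longest coding sequence, chosen after seeing the data, PAICS stood above IMPDH2 in DMSO (559.5 and 281) and in TR-107 (408 and 338), and IMPDH1 went from position 5 to position 9. On that scale PFAS was still lowest in both groups, but GMPS stood at position 7 and ADSL at position 3 in both.

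Promoter windows of RefSeq (250 bases before to 50 after a start site, GRCh38.p14) covered 8 of the 10 members (not ADSL and IMPDH2) in 13 windows and were searched on both strands. The E-box CACGTG, the site of MYC and related factors, matched in 7.26% of all 35116 windows. Among the members it matched in windows of 3, PPAT, PAICS and ATIC, all of which fell. PFAS, GMPS and IMPDH1 fell too and had no match. GART, which rose, and ADSS2, which was not called, had no match either. The PPAT and PAICS matches are 1 and the same site, which starts at base 41 of the PAICS transcript and lies upstream of PPAT. ATIC had 1 match that starts 46 bases before its start site at 215312059 and 1 that starts at base 30 of its transcript. The sites are shown on the plus strand of the chromosome, which is the strand of PAICS and ATIC (chr4:56435783-56435801, chr2:215312004-215312027 and chr2:215312079-215312102), with the E-box in capitals.
PPAT-PAICS E-box: tatttgctgCACGTGgaaa
ATIC upstream E-box: ccggcgggcCACGTGataagcccg
ATIC downstream E-box: ctacctgcgCACGTGgtgccgccg
Per window, the E-box matched in 3 of the members' 13 windows. The GC box GGGCGG matched in 10 of the 13, with at least 1 window for each of the 8 members, and in 45.0% of all windows. The CCAAT box matched in 3 of the 13, all of GART, and in 34.6% of all windows. Windows can overlap, so these counts hold some sites more than once. The GART windows of the start sites 33542889 and 33542892 share their CCAAT boxes. The PPAT window and the PAICS window of the start site 56435752 share their GC boxes. The C/EBP-ATF composite element TGATGNAA, of the kind bound by ATF4, matched in 3.62% of all windows and in 0 of the 13 windows. A match is a run of letters and was not tested for binding. MYC itself fell (log2 fold change -0.20 ± 0.04, SE), as did NRF1, the gene of nuclear respiratory factor 1 (-0.29 ± 0.09, SE), while ATF4 rose (0.96 ± 0.04, SE), and their part in the members' changes was not tested.

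PRPS1 and PRPS2, the synthetases that make PRPP, both fell, from 96.0 ± 1.68 to 67.6 ± 2.07 CPM and from 99.5 ± 2.24 to 66.3 ± 1.66 CPM (SD, n = 3), with log2 fold changes of -0.50 and -0.59. Of their associated proteins, which restrain the synthetases, PRPSAP2 rose (0.27 ± 0.08, SE; edgeR adjusted p = 0.00417) and PRPSAP1 did not pass (-0.10; edgeR adjusted p = 0.213). The median of these 4 was -0.30.

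Of 8 tested genes of the folate one-carbon supply of formyl groups, 2 rose and 2 fell, and their median log2 difference was 0.02. The mitochondrial enzymes MTHFD2 (378 ± 8.70 to 836 ± 18.4 CPM, SD, n = 3) and MTHFD1L (157 ± 1.54 to 236 ± 4.86 CPM, SD, n = 3) rose. Other mitochondrial enzymes of the list did not pass: SHMT2 (0.09, edgeR adjusted p = 0.0609), MTHFD2L (-0.04, 0.84) and ALDH1L2 (0.98, 0.11). ALDH1L2 was low, at 0.635 CPM in DMSO and 1.27 CPM in TR-107. SHMT2 was called with upper-quartile factors (edgeR adjusted p = 0.0376) and without TR-107 replicate 1 (0.0228). FPGS did not pass either (-0.14, edgeR adjusted p = 0.0526), with all TR-107 libraries below all DMSO libraries. It was called lower with relative log expression factors (edgeR adjusted p = 0.0423), library size alone (0.00459) and a minimum of 1 CPM in 3 libraries (0.0437). The same held without DMSO replicate 1 (0.0367) and without TR-107 replicate 1 (0.0460). In the cytosol, MTHFD1, which makes the formyl-folate that GART and ATIC use, fell from 221 ± 3.39 to 179 ± 5.78 CPM (SD, n = 3), and SHMT1 fell too (-0.67 on the log2 scale). ALDH1L1, which destroys formyl-folate, had 0 counts in all libraries.

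Salvage enzymes rebuild purine nucleotides from free bases and nucleosides. Of 6 tested, MTAP (303 ± 7.19 to 184 ± 12.9 CPM, SD, n = 3), the deoxycytidine kinase DCK (-0.46) and HPRT1 (-0.20), which returns hypoxanthine and guanine to IMP and GMP, fell. ADK, adenosine kinase, rose from 49.7 ± 2.52 to 72.9 ± 4.62 CPM (SD, n = 3). APRT (0.00) and DGUOK (0.07) did not pass, and the median of the list was -0.10.

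Among 12 tested genes of purine interconversion and breakdown, 6 rose and 4 fell, and their median log2 difference was 0.19. Nucleotidases were the largest rises: NT5E, the surface enzyme CD73 that turns AMP into adenosine, went from 135 ± 8.84 to 333 ± 15.2 CPM (SD, n = 3), and the cytosolic NT5C2, which prefers IMP and GMP, from 82.2 ± 2.88 to 149 ± 3.86 CPM (SD, n = 3). GDA, guanine deaminase (0.20), and NT5C (0.25) rose. PNP, which splits inosine and guanosine (-0.61), GMPR, which turns GMP back into IMP (-0.80), AMPD2, an AMP deaminase (-0.26), and ITPA (-0.26) fell. The other 2 that rose, AMPD3 (0.26) and GMPR2 (0.18), kept their direction but not their call when some libraries were left out. AMPD3 was at 0.20 without DMSO replicate 3 (edgeR adjusted p = 0.0809), and GMPR2 at 0.13 without DMSO replicate 1 (0.131) and 0.16 without TR-107 replicate 2 (0.0635). ADSS1, the other adenylosuccinate synthase gene, was low (DMSO libraries 43, 47 and 40 counts, treated libraries 41, 67 and 68) and did not pass (log2 difference 0.63; edgeR adjusted p = 0.1005), against 78.1 ± 3.06 and 78.0 ± 2.14 CPM for ADSS2 (SD, n = 3).

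Of 9 tested kinases that carry AMP, GMP and GDP to higher phosphates, 6 fell and 0 rose, with a median of -0.28; the other 3 tested were not called. AK4 (-0.82), NME4 (-0.76) and NME1 (-0.60) were among those that fell, as was NME2 (-0.93), a low gene (6.80 ± 2.44 and 3.60 ± 1.01 CPM, n = 3, SD) whose groups overlapped. NME3 (-0.18) was called with all libraries. Its log2 difference was -0.18 without DMSO replicate 2 (edgeR adjusted p = 0.0822), -0.16 without DMSO replicate 3 (0.106), -0.16 without TR-107 replicate 1 (0.121) and -0.19 without TR-107 replicate 3 (0.0607), so the size stayed close while the call was lost. GUK1, the kinase of GMP, did not pass (-0.07). NME1 and NME2 are adjacent, closely similar genes joined by a readthrough transcript, so their separate counts are uncertain.

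In pyrimidine synthesis, the sister pathway, 4 of 5 tested genes fell and 0 rose, with a median of -0.26. CTPS1 (-0.72), UMPS (-0.71), DHODH, the mitochondrial enzyme of the pathway (-0.26), and CAD (-0.22) fell, and CTPS2 did not pass (-0.18; edgeR adjusted p = 0.175). DHODH was at -0.24 and not called when DMSO replicate 1 was left out (edgeR adjusted p = 0.0769), and likewise at -0.24 (0.0628) and -0.21 (0.0854) without replicate 2 or 3 of the treated group. The calls of these lists are read beside the 28.6% lower and 29.2% higher of all tested genes.

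**Figure D4:**
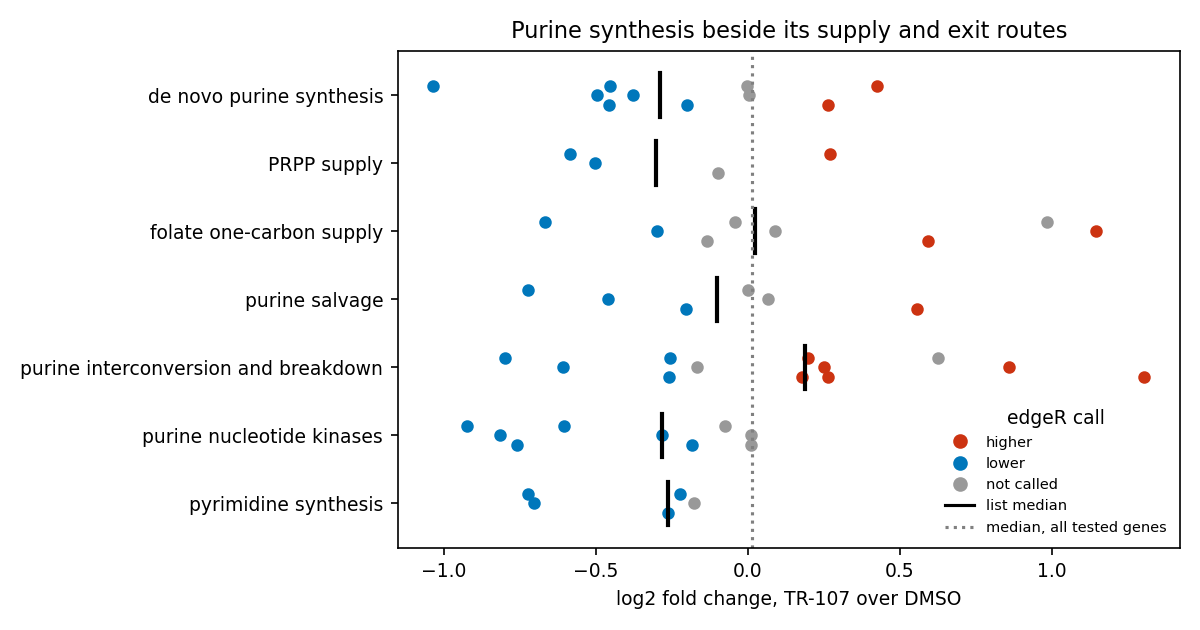
Log2 fold change of each tested gene, TR-107 over DMSO, in the 7 lists of purine and pyrimidine metabolism; colour gives the edgeR call, black lines are list medians and the dotted line is the median of all tested genes (0.01). The purine synthesis list has its median at -0.29 with GART and IMPDH2 to the right of 0, and the interconversion and breakdown list has the highest median of these 7, 0.19.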

How the data were processed

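Each deposited file held raw whole-number counts per NCBI gene ID for 1 library. Per the submitters' processing notes, the authors used FastQC, Trimmomatic, HISAT2 and featureCounts with the build hg38; versions, annotation, strand and multi-mapping settings are not given there. Of 28395 gene IDs, 27745 matched a RefSeq symbol of GRCh38.p14. All 6 libraries and all genes entered edgeR's quasi-likelihood test (edgeR 4.0.16, R 4.3.3) with TMM scaling, filterByExpr, a robust fit, the group as the only term and Benjamini-Hochberg adjustment at 0.05. SE and 95% intervals come from that fit. The test was also run on simulated counts in which few genes changed, as many up as down. In the data 57.8% of tested genes were called, so that run does not cover a shift of this breadth. Ratios and shares were compared by exact two-sided permutation tests over libraries (SciPy 1.17.1), and figures were drawn with matplotlib 3.10.9. Groups and replicate numbers came from treatment labels and titles.

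Alternatives were other scalings, other filters, a replicate block, DESeq2 1.42.0, limma-voom (limma 3.58.1), leaving out mitochondrially encoded genes, and leaving out each library. The members and lists were chosen with earlier results of these data known. Named were all 10 members, every gene of lists of up to 5, and otherwise up to 4 called genes per direction with the smallest p; uncalled genes of larger lists, and AMPD3, GMPR2 and NME3, whose calls changed when a library was left out, were named after their values were seen. Replicate pairs differed by a chi-square of 3.92 to 6.05 per degree of freedom, so none was within sampling noise. A nuclear respiratory factor 1 motif was also searched in the promoter windows; that search is not reported here. One gene of the folate list is not reported here and was left out of that list's counts and median.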

Additional observations from a re-analysis of the deposited data

How the results depend on the processing

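The 8 called members kept their direction and their call, and ADSL and ADSS2 stayed uncalled, under all 15 alternative fits, so the counts of 6 lower and 2 higher members were the same throughout. Over these fits IMPDH1 ranged from -1.10 to -1.02, GART from 0.36 to 0.44, IMPDH2 from 0.20 to 0.29 and ATIC from -0.27 to -0.14 on the log2 scale, and the highest adjusted p of a called member was 0.0309, for ATIC. Genes called in all ranged from 7323 to 8021. With library size alone the median of all tested genes was -0.05. The sign of the uncalled members turned in 11 of their 30 values. For ADSL the log2 fold change was -0.0019 with relative log expression factors, -0.0600 with library size alone, -0.0016 with no filter on low counts and -0.0019 with DESeq2, and -0.0181 to 0.0240 when 1 library was left out. For ADSS2 it was 0.0029 with upper-quartile factors, and -0.0366 to 0.0208 when 1 library was left out. The difference in the PAICS to PPAT log2 ratio was -0.0170 to 0.0218 when 1 library was left out, that of the IMPDH2 to IMPDH1 ratio 1.27 to 1.34, that of the branch ratio -0.09 to -0.02 and that of the member share -0.0357 to -0.0316 percentage points. No alternative for the branch ratio changed its weighting by gene length. The difference between IMPDH2 and PAICS in level per kilobase was 156 in DMSO and 238 in TR-107 by merged exon length, and -278 and -70.9 by longest coding length. Same-numbered libraries did not deviate together (r of deviations across genes -0.03, -0.02 and 0.05), nor did each correlate best with its own number, so the numbers were not taken as pairs; with the replicate block, 7918 genes were called and the members' calls were the same. Among the named genes of the other lists, GMPR2 lost its call (adjusted p 0.121) and PRPSAP1 (0.0353), FPGS (0.00459) and GUK1 (0.0358) gained one with library size alone. Depth limits low genes such as NME2 and ADSS1 more than the members, which had at least 1258 counts in every library.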
